A study of Mus musculus with 3 samples.

Results

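The Myc, Max and Mxd network was read by 24 probe sets for 10 genes: Myc, Mycn, Mycl, Max, Mxd1, Mxd3, Mxd4, Mxi1, Mnt and Mlx. These are all probe sets annotated with exactly 1 of these gene symbols, out of 45037 probe sets on the array and 34945 with 1 symbol, and every probe set is shown on its own. They cover 10 of 18193 genes with such a probe set. The network was chosen by the high value of 1 Mycn probe set in both transduced cultures. RNA levels were read with Affymetrix mouse genome arrays from 3 cultures of C3H10T1/2, a mouse embryonic mesenchymal cell line that can form cartilage, bone, fat and tendon-like cells. The cultures were C3H10T1/2 cells without a vector, C3H10T1/2 cells overexpressing Venus, a yellow fluorescent protein, and C3H10T1/2 cells overexpressing Venus-Mkx, which carries the tendon homeobox factor Mohawk. The labels give serum-containing medium for all 3. Both transduced cultures received a retrovirus made in PLAT-E packaging cells with the pMIGR vector and, by the study's methods, medium with puromycin, so vector, virus and drug are shared by Venus and Venus-Mkx and cannot be told apart in a comparison with C3H10T1/2. There was 1 array per condition, so no difference below has a replicate check and no p-value or error is given.

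Myc proteins are basic helix-loop-helix leucine zipper factors that need Max as a partner to bind E-boxes, DNA sites with the core CACGTG, where they raise genes of growth, nucleotide synthesis and ribosome production. The Mxd proteins, Mxi1 and Mnt also pair with Max, occupy the same sites and recruit Sin3 and histone deacetylases, so that they oppose Myc. Mlx is a parallel partner, which joins the glucose-responsive factors MondoA and ChREBP as well as some Mxd proteins. In many lineages Myc is high in dividing progenitors, and Mxd1 and Mxd4 are known from cells that leave the cycle and differentiate, whereas Mxd3 is known from dividing cells.

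The members' own promoters hold the network's binding site unequally. Promoters from RefSeq (GRCm38.p6), each covering 250 bases before and 50 after a start site, were found for 9 of the 10 genes, with 11 promoters in all. CACGTG, which reads the same on both strands, was present in 4 of these 11 promoters, against 7.15% of all 32851 promoters. The windows with the site in capitals are shown because they place the E-box in the shared partner Max, in Mlx and in the antagonists Mnt and Mxd4.

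Max, chr12:76962234-76962263, minus strand: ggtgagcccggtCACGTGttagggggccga
Mlx, chr11:101087238-101087267, plus strand: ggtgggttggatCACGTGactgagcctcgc
Mnt, chr11:74830789-74830818, plus strand: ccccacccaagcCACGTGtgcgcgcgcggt
Mxd4, chr5:34187912-34187941, minus strand: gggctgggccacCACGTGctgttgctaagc

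The first base of the E-box lies 3 bases before the start site in Max, 40 bases before it in Mlx, 123 in Mnt and 219 in Mxd4. The site was not in the promoter windows of Mycn, Mycl, Mxd1, Mxd3 or Mxi1. A match is a stretch of letters and says nothing of binding in these cells.

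The antagonist Mxd3 held the lowest differences of the network on the array labelled Venus-Mkx. Mxd1, Mxd4, Mxi1 and Mnt each had a probe set above both controls by at least 1.5-fold, as had 10.3% of all measured probe sets. None of theirs was at least 2-fold above both. Another measured probe set of Mxd1, Mxd4 and Mxi1 differed from Venus by only 0.019, 0.092 and 0.11. Myc and Max differed little between Venus and Venus-Mkx. Of the activators, Mycl was not measurable, and Mycn was above background with only 1 of its 3 probe sets. The word labelled is used because of Mkx itself, read by 1437492_at. Its log2 value was 6.88 in C3H10T1/2, 7.43 with Venus and 2.71 with Venus-Mkx. That goes against the label if this probe set reads the Mkx of the vector. The part of Mkx carried by the vector was not compared with this probe set, so this is not settled. Every direction below rests on the label as given.

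**Figure D1:**
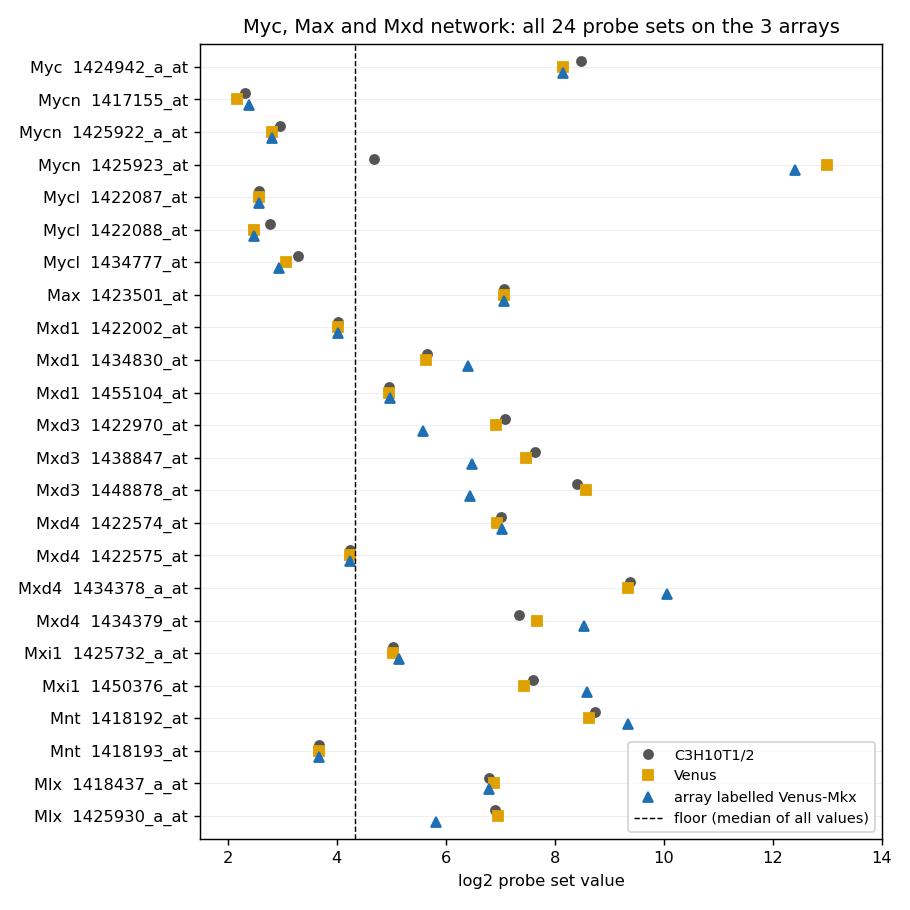
Log2 value (x axis) of each of the 24 network probe sets (y axis, gene and probe set) on the 3 arrays, 1 array per condition, with circles for C3H10T1/2, squares for Venus and triangles for the array labelled Venus-Mkx, and a dashed line at the floor of 4.34. The high Mycn probe set lies at 4.68 in C3H10T1/2 and above 12 in both transduced cultures, and the 3 Mxd3 probe sets lie lowest on the array labelled Venus-Mkx.

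Values were deposited as log2, and a probe set counted as measured if any array reached 4.34, the median of all values. In all, 52.3% of probe sets were measured. Of the 24 network probe sets, 16 were measured and 8 were not, and 9 of the 10 genes had at least 1 measured probe set. Each of the 16 reached the floor on all 3 arrays, so none was kept only through the culture in which it was high. An equal value on all 3 arrays was held by 5 of the 24, or 20.8%, against 24.6% of all probe sets. Levels of different probe sets were not set against each other, because probe sets differ in how strongly they bind.

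Among the activators, Myc, the broadly expressed founder of the family, was read by 1 probe set, 1424942_a_at, with log2 values of 8.47 in C3H10T1/2, 8.16 with Venus and 8.15 with Venus-Mkx. C3H10T1/2 was highest, and the transduced cultures were nearly equal. The log2 difference of Venus-Mkx was −0.0023 from Venus and −0.32 from C3H10T1/2, the latter a 1.25-fold lower value. Mycl, the family member of lung and nervous tissue, was below the floor on all 3 arrays with all 3 of its probe sets. Their values ran from 2.47 to 3.29, so no difference of Mycl can be read.

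Mycn, the family member of embryonic and neural tissue, was read by 3 probe sets that went separate ways. One of them, below called the high Mycn probe set, had log2 values of 4.68 in C3H10T1/2, 12.998 with Venus and 12.40 with Venus-Mkx. The untransduced culture was just above the floor, and both transduced cultures were far above it. As read, Venus was 319.6-fold and Venus-Mkx 210.4-fold above C3H10T1/2, and Venus-Mkx was 1.52-fold below Venus. Because these values led to the choice of the network, they are a description. The probe set 1425922_a_at, which the annotation ties to the same sequence record as the high one, had values of 2.95, 2.81 and 2.81 in C3H10T1/2, Venus and Venus-Mkx. The third, 1417155_at, had 2.31, 2.16 and 2.39 in the same order. Both lay below the floor on all 3 arrays, so 1 of 3 Mycn probe sets shows a difference and the other two show no level above background in any culture. The probe sequences were not used here, so the signal is that of a probe set annotated as Mycn and was not shown to be Mycn mRNA.

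The measured genes beside Mycn on its chromosome did not share its pattern. None of the 3 annotated genes on either side had a probe set of its own here, nor did Mycnos, the antisense gene. Protein-coding neighbours were therefore looked up after the values were seen. Ddx1, which encodes an RNA helicase, had values of 10.98 in C3H10T1/2, 10.77 with Venus and 10.75 with Venus-Mkx on probe set 1415915_at, and Nbas, a gene of vesicle traffic, had 7.90, 7.71 and 8.06 with 1436143_at. Both stayed within 0.35 on the log2 scale between any pair of arrays for these probe sets. Vsnl1, Cyria and Lratd1 were below the floor throughout.

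No other probe set came near the high Mycn probe set over the 3 arrays. By the distance between log2 values, the nearest named genes were Ifi27l2a, Rtp4, Xaf1 and Ifit3, all interferon-induced, at distances from 4.25 to 4.44 on the log2 scale. They differed from it in shape. Ifit3 was at 4.53 in C3H10T1/2, 8.56 with Venus and 12.42 with Venus-Mkx, so it was higher again in Venus-Mkx where the high Mycn probe set was not. A total of 57 probe sets were at least 2-fold above C3H10T1/2 in both transduced cultures and less than 2-fold apart between them. After the high Mycn probe set, whose log2 difference between Venus and C3H10T1/2 was 8.32, the next was Egr3 (1436329_at), an immediate early transcription factor gene, with 3.08. Egr2, of the same family, had 2.89 for 1427682_a_at and 2.41 for 1427683_at, and a probe set annotated to several genes lay between them with 2.60. Interferon response genes also moved with the transduced cultures: of 6 measured, 5 were at least 2-fold higher in Venus than in C3H10T1/2, against 1.49% of measured genes, and all 6 were at least 2-fold higher in Venus-Mkx than in both controls, against 6.82%. The median log2 difference between Venus-Mkx and Venus was 3.91. Of the 6, only Ifit3 was above the floor in C3H10T1/2, so no size is given for the differences of this list from that culture. The rest counted as measured only through the transduced cultures, and the list was chosen with earlier results of these data known. Both counts were thus partly fixed by the choice, so the shares beside them are for scale and nothing is read from them. The part of these genes in the Mycn value was not tested.

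**Figure D2:**
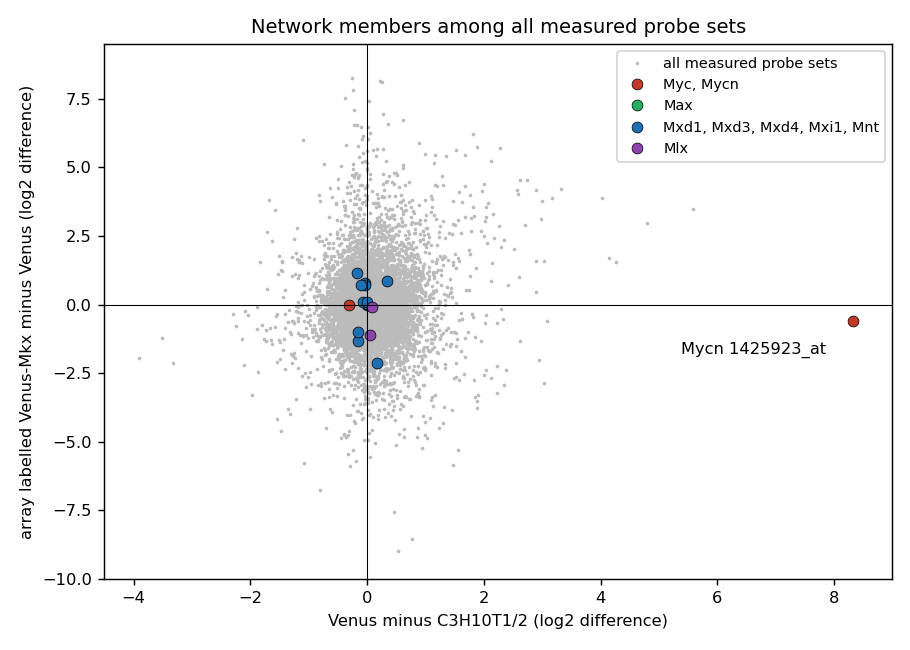
Log2 difference of Venus from C3H10T1/2 (x axis) and of the array labelled Venus-Mkx from Venus (y axis) for the 16 measured network probe sets (coloured by role) among 23574 measured probe sets (grey), 1 array per condition. The high Mycn probe set stands alone at 8.32 on the x axis, and the other 15 members lie between −0.32 and 0.34 on that axis.

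Between Venus and C3H10T1/2, the high Mycn probe set was the 1 measured member at least 2-fold apart, against 1.14% of measured probe sets at least 2-fold higher. That count was fixed by the value that led to the choice of the network, so the share is given for scale and nothing is read from it. No member was at least 2-fold lower, against 0.479%. The other 15 measured members differed by −0.32 to 0.34, with Myc the lowest and Mxd4 (1434379_at) the highest. The SD of this difference over all measured probe sets was 0.32.

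Max, the partner that Myc and its antagonists share, was read by 1 probe set, 1423501_at, with the same value of 7.07 on all 3 arrays. Such equal values were held by 8.81% of measured probe sets, and they come from the deposited values themselves. They show no difference but do not bound a small one. Of the partners outside the 10 genes, Mga, which encodes a large Max-binding repressor, was also equal on all 3 arrays, at 7.29 for 1434746_at, while its other measured probe set differed from Venus by 0.17.

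Of the antagonists, Mxd3 was lower on the array labelled Venus-Mkx with each of its 3 probe sets. The probe set 1448878_at had log2 values of 8.40 in C3H10T1/2, 8.57 with Venus and 6.45 with Venus-Mkx, which is 4.35-fold below Venus and 3.87-fold below C3H10T1/2. The probe set 1422970_at had 7.08, 6.92 and 5.59 in the same order, 2.52-fold below Venus and 2.81-fold below C3H10T1/2. The third, 1438847_at, had 7.63, 7.47 and 6.49, with log2 differences of −0.99 from Venus and −1.15 from C3H10T1/2. On all 3 probe sets the controls lay close together, within 0.17, and Venus-Mkx lay below both. The probe sets read 1 RNA sample and are no replicates, and whether fewer cells held the RNA or each cell held less cannot be told apart in bulk RNA. The genes nearest to 1448878_at, after each probe set's mean was subtracted, were Cryab, Ank2 and Ncs1, with log2 differences from Venus of −2.17, −2.16 and −2.17. With 3 values per probe set this likeness is loose.

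The 250 bases before the Mxd3 start site (GRCm38.p6, chr13:55329732-55329981, minus strand, from RefSeq) are shown because Mxd3 held the lowest differences of the network and lacks CACGTG in its promoter window. Capitals mark the GC box GGGCGG, the core site of Sp family factors, searched as GGGCGG and CCGCCC with overlaps counted.

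Mxd3: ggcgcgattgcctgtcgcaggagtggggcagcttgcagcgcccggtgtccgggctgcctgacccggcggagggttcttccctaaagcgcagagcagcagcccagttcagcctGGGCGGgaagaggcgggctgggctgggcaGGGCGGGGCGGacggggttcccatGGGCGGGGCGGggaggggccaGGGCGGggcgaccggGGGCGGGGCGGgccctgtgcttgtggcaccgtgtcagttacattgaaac

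The window held 8 such boxes and 73.2% G and C. At least 1 box was in 32.7% of all windows of this length, and 8 or more in 0.155%. The motif was chosen after the sequence was read, so the count is a description only.

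Each of the other antagonists had at least 1 probe set that was at least 1.5-fold above both controls in Venus-Mkx and none that was at least 2-fold above both. Mxd4, which is known from resting and differentiated cells, was read by 4 probe sets. With 1434379_at it had log2 values of 7.34 in C3H10T1/2, 7.68 with Venus and 8.53 with Venus-Mkx, and with 1434378_a_at 9.37, 9.33 and 10.05. Venus-Mkx was highest on both, 1.80-fold and 1.65-fold above Venus. The third, 1422574_at, had 7.01, 6.94 and 7.03, a log2 difference of 0.092 from Venus, and 1422575_at was below the floor at 4.25 on all 3 arrays. The probe sets of Mxd4 therefore do not give 1 size of difference.

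Mxi1, an antagonist also known as a Max interactor of resting tissue, had log2 values of 7.60 in C3H10T1/2, 7.42 with Venus and 8.59 with Venus-Mkx on probe set 1450376_at. Venus-Mkx was 2.25-fold above Venus and 1.98-fold above C3H10T1/2, just short of 2-fold from the latter. Its other probe set, 1425732_a_at, had 5.03, 5.03 and 5.14. Mnt, the most widely expressed antagonist, had 8.74 in C3H10T1/2, 8.63 with Venus and 9.34 with Venus-Mkx on probe set 1418192_at, 1.64-fold above Venus and 1.52-fold above C3H10T1/2, while 1418193_at was below the floor at 3.67 throughout. Mxd1, which is induced in differentiating cells, had 5.66, 5.63 and 6.40 in C3H10T1/2, Venus and Venus-Mkx with 1434830_at, 1.71-fold above Venus. With 1455104_at it had 4.95, 4.95 and 4.97, and 1422002_at was below the floor at 4.02 on all arrays.

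**Figure D3:**
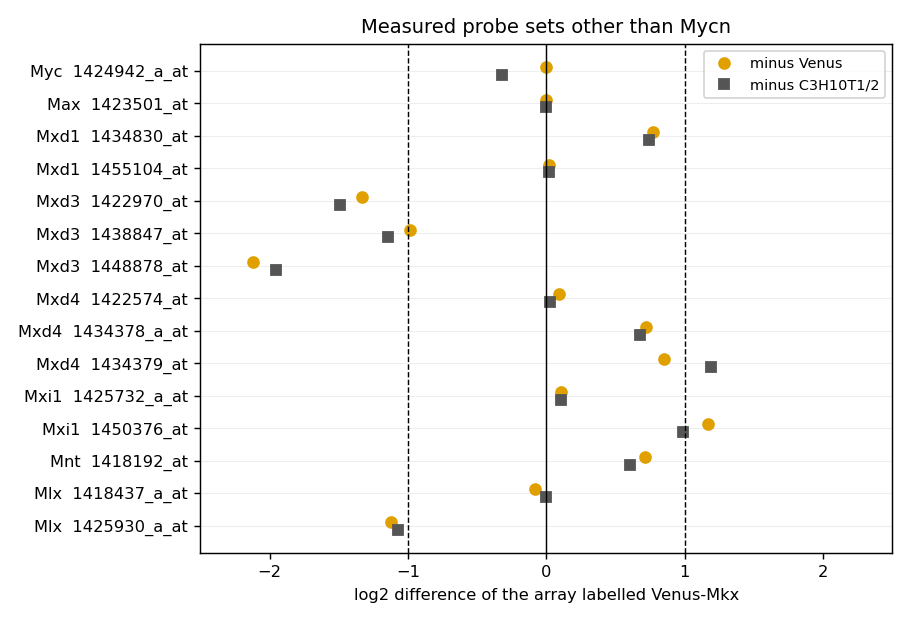
Log2 difference of the array labelled Venus-Mkx from Venus (circles) and from C3H10T1/2 (squares) for the 15 measured network probe sets other than Mycn, 1 array per condition, with dashed lines at a 2-fold difference. The 3 Mxd3 probe sets and the Mlx probe set 1425930_a_at lie farthest to the left of 0, and 5 antagonist probe sets lie between 0.60 and 1.19.

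Counted over all members, 3 of 16 measured probe sets fell short of both controls by at least 2-fold in Venus-Mkx, against 5.24% of 23574 measured probe sets. None lay at least 2-fold above both, against 5.58%. The 3 were Mxd3 with 1448878_at and 1422970_at and Mlx with 1425930_a_at. After quantile normalization of the 3 arrays 1 was higher, the Mxi1 probe set at the edge of the threshold. Against Venus alone 1 member was higher and 3 were lower, where 6.20% and 6.57% of measured probe sets were, and against C3H10T1/2 alone 2 were higher and 4 lower, where 7.39% and 6.99% were. One of the 2 higher was the high Mycn probe set, whose count was fixed by the choice of the network, and the other was Mxd4 with 1434379_at. At 1.5-fold, 5 were higher, against 10.3%, and 4 were lower, against 11.9%. The 5 were all antagonists: 1 probe set each of Mxd1, Mxi1 and Mnt and 2 of Mxd4. Probe sets of 1 gene share their RNA, so these counts are not counts of independent genes. Apart from Mxd3, left aside after its values were seen, all 8 measured antagonist probe sets lay above both controls, whereas 34.8% of all measured probe sets did. Their median log2 difference from Venus was 0.72. Some of these differences were very small: Mxd1 with 1455104_at lay 0.019 above Venus, and Mxd4 with 1422574_at lay 0.022 above C3H10T1/2. With arrays centred on their medians, this Mxd1 probe set was at −0.027 from both controls and this Mxd4 probe set at −0.024 from C3H10T1/2. The 8 are thus not all above both controls on that scale. For all 11 measured antagonist probe sets, Mxd3 included, the median was 0.11, and it was 0.00 over all measured probe sets. For the 16 measured members it was 0.0097. The interferon response genes and the Mkx probe set, given above, differed far more in the same comparison, and their part in these values was not tested.

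Mlx, the parallel partner, was read in different ways by its 2 probe sets. The probe set 1425930_a_at had log2 values of 6.90 in C3H10T1/2, 6.95 with Venus and 5.82 with Venus-Mkx, 2.18-fold below Venus and 2.10-fold below C3H10T1/2. The probe set 1418437_a_at had 6.79, 6.87 and 6.79, with no difference from C3H10T1/2. The Mlx transcripts that each probe set reads were not compared here. Mlxip, which encodes MondoA, had values of 7.55, 7.34 and 7.15 with 1426979_at, lowest in Venus-Mkx, and Mlxipl, which encodes ChREBP, was below the floor on all 3 arrays. Neither measured partner outside the 10 genes, Mlxip or Mga, differed at least 2-fold from both controls.

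Genes of proteins that act with the network differed by less than 2-fold from at least 1 control. Of 11 measured coactivators of Myc, 10 measured genes of Myc protein turnover and 5 measured corepressors of Mxd and Mnt, none was at least 2-fold higher or lower in Venus-Mkx than in both controls, against 6.82% higher and 5.34% lower among 11169 measured genes, each gene read by its probe set with the highest mean. The median log2 difference from Venus was 0.16 for the coactivators, −0.029 for the turnover genes and −0.23 for the corepressors, and 0.00 over all measured genes. Trrap, a scaffold of acetyltransferase complexes, differed by 0.35 from Venus, Ep400 by 0.37, Kat5 by 0.29 and Wdr5, which anchors Myc to chromatin, by 0.31. Another Wdr5 probe set differed by −0.73, so the direction of Wdr5 is not settled. Actl6a, Ruvbl1 and Ruvbl2, subunits that share complexes with Trrap, differed by −0.48, −0.28 and −0.27. Kat2a, Ccnt1 and Zbtb17 lay between −0.021 and 0.24, and the 2 Cdk9 probe sets at −0.20 and 0.16. Skp2, a ubiquitin ligase subunit that targets Myc, was the turnover gene farthest below, with values of 8.95 in C3H10T1/2, 8.94 with Venus and 8.27 with Venus-Mkx, a difference of −0.67 from Venus. All 6 measured Skp2 probe sets lay below Venus, from −0.79 to −0.50. Usp37 differed by −0.32, Aurka by −0.12 and Usp28 by −0.059. Probe sets differed in direction for Huwe1, a further Myc ligase, from −0.38 to 0.061, for Gsk3b from −0.16 to 0.37 and for Usp7 from −0.26 to 0.24. Plk1 did not differ from Venus, and Fbxw7 and Stub1 were equal on all 3 arrays with the probe set of the highest mean. Among the corepressors, Hdac2 differed by −0.53, Sin3b by −0.30, Hdac1 by −0.23, Hdac3 by 0.13 and Sin3a by 0.34. Measured probe sets ranged from −0.53 to 0.0 for Hdac2, from −0.31 to −0.039 for Sin3b and from 0.15 to 0.52 for Sin3a.

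Genes known to be raised by Myc lay below C3H10T1/2 more often than above it in both transduced cultures, by small amounts. Of 33 measured genes of this list, 24, or 72.7%, were lower in Venus-Mkx than in C3H10T1/2, against 45.0% of all measured genes, and 24 were lower in Venus than in C3H10T1/2, against 39.4%. The list had a median log2 difference of −0.12 between Venus and C3H10T1/2, −0.12 between Venus-Mkx and Venus and −0.31 between Venus-Mkx and C3H10T1/2, with 0.00 over all measured genes in each comparison. In 18 of the 33, or 54.5%, Venus lay below C3H10T1/2 and Venus-Mkx below Venus, against 19.9% of all measured genes. These comparisons share arrays and are not independent. The list was also chosen with earlier results of these data known, so the shares beside its counts are for scale. Bop1, a ribosome assembly factor, was the 1 gene at least 2-fold above both controls, against 6.82% of all measured genes, with 7.70 in C3H10T1/2, 7.56 with Venus and 8.74 with Venus-Mkx, although its other measured probe set differed from Venus by 0.15. None was at least 2-fold below both, against 5.34%, and 3 were at least 2-fold below C3H10T1/2 alone, against 6.80%. At 1.5-fold, 6 lay below both controls, against 11.6%. These counts read 1 probe set per gene. The 4 measured Shmt1 probe sets lay from −1.13 to −0.78 from Venus and from −1.41 to −0.86 from C3H10T1/2. At least 1 of them was thus 2-fold or more below both controls.

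The genes of this list were ranked by their probe set with the highest mean. Farthest below Venus were the iron receptor gene Tfrc, the folate enzyme gene Shmt1 and the ribosome assembly gene Wdr12. Tfrc had log2 values of 9.55 in C3H10T1/2, 7.98 with Venus and 7.16 with Venus-Mkx, so most of its difference was already present between Venus and C3H10T1/2. Shmt1 had 7.59, 7.19 and 6.41, and Wdr12 had 8.69, 8.35 and 7.61, both lower at each step. At the upper end, after Bop1, Prmt5, an arginine methyltransferase gene, differed from Venus by 0.29 and Polr1b, a subunit of RNA polymerase I, by 0.20. Other probe sets would change this order. The 4 measured Eif4e probe sets ranged from −0.86 to 0.88 from Venus, and the lowest Nolc1 probe set lay at −0.83. CACGTG was found in the promoters of 8 of the 30 genes of the list that have one in RefSeq, or 26.7%, against 8.09% of all 27025 genes with a promoter, and in 4 of 9 network genes.

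**Figure D4:**
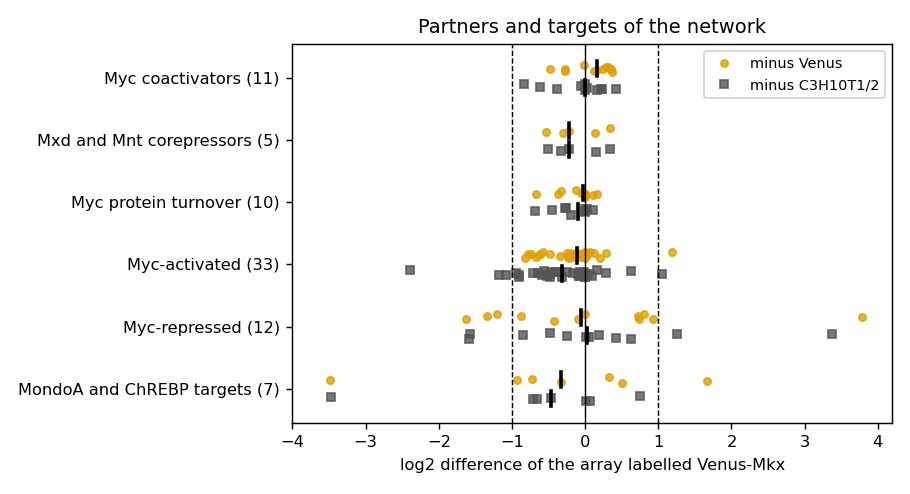
Log2 difference of the array labelled Venus-Mkx from Venus (circles) and from C3H10T1/2 (squares) for the measured genes of 6 lists of partners and targets, 1 array per condition, with the number of genes in brackets, black bars at the medians and dashed lines at a 2-fold difference. The Myc-activated genes have medians of −0.12 and −0.31, and the Myc-repressed genes spread from −1.63 to 3.78 from Venus.

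Genes known to be lowered by Myc spread widely in both directions. Of 12 measured, 1 lay at least 2-fold above both controls in Venus-Mkx, where 6.82% of all measured genes did, 2 lay at least 2-fold below both, where 5.34% did, and 9 did neither. Above C3H10T1/2 alone by 2-fold there were 2, against 8.74%, and above both by 1.5-fold there were 3, against 12%, and the median log2 difference from Venus was −0.052. Clu, which encodes the chaperone clusterin, was the higher gene, with 9.61 in C3H10T1/2, 9.21 with Venus and 12.99 with Venus-Mkx, and all 4 of its measured probe sets differed from Venus by at least 3.38. Cdkn2b, which encodes the cyclin-dependent kinase inhibitor p15, had 6.82, 6.87 and 5.23, and Gadd45a, a stress response gene, had 7.64, 7.41 and 6.07, both lowest in Venus-Mkx. Thbs1, a matricellular gene, had 10.75, 11.46 and 10.26, highest in Venus. Next from the top came Cebpa, with a difference from Venus of 0.93 but of 0.19 from C3H10T1/2, and Cdkn1b, the gene of the inhibitor p27, with 0.81 and 1.26.

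Targets of MondoA and ChREBP, the factors that pair with Mlx, also split. Arrdc4 and Txnip, both arrestin-like genes that MondoA and Mlx are known to raise, had 7.01, 6.10 and 7.77, and 9.39, 8.96 and 9.46, in C3H10T1/2, Venus and Venus-Mkx, lowest in Venus on both. The lipid synthesis genes Scd1, Acly, Fasn and Acaca differed from Venus by −3.49, −0.94, −0.73 and −0.33, and Pklr by 0.32. Of 7 measured, Scd1 was the 1 gene at least 2-fold below both controls, against 5.34%, and none was at least 2-fold above both, against 6.82%, and the median from Venus was −0.33.

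The labelled cell line was checked against marker genes. Of 6 mesenchymal markers, all 6 were measured, with Vim at 13.45, 13.47 and 13.03. Col1a1, with 11.52, 11.88 and 13.22, and Thy1, with 7.27, 7.26 and 8.68, were at least 2-fold higher in Venus-Mkx than in both controls, and the other Col1a1 probe set differed from Venus by 0.82. The list had summed log2 values of 70.1 in C3H10T1/2, 70.8 with Venus and 73.0 with Venus-Mkx. Of the 6, however, 3 lay above Venus and 3 below it in Venus-Mkx, with a median log2 difference of 0.024. Of 5 macrophage markers, Ptprc, Cd68 and Adgre1 were below the floor on all 3 arrays, and Csf1r and Lyz2 were higher in Venus-Mkx than in both controls by at least 2-fold, although the 3 measured Csf1r probe sets ranged from 0.21 to 1.23 from Venus. Summed values over the 5 were 17.6, 19.3 and 22.4. Of 4 endothelial markers only Tek was measured, with 4.53, 4.02 and 5.95, at least 2-fold higher in Venus-Mkx than in both controls. Summed values over the 4 were 13.6, 12.9 and 14.9. Of 4 epithelial markers only Epcam was measured, with 6.74, 7.03 and 7.60, highest in Venus-Mkx. Summed values over these 4 were 16.7, 17.5 and 17.0. Defining markers such as Pecam1, Cdh5, Cdh1 and Krt18 were below the floor. Their part in the network values was not tested.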

How the data were processed

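RNA of 3 C3H10T1/2 cultures was hybridized to Affymetrix mouse genome arrays, 1 per condition. The authors deposited log2 probe set values. The paper's methods name MAS 5.0, and the submitters' processing notes name RMA, with no version given in the sources used here. The values, from 1.44 to 14.00, were used without further normalization, and no detection calls were used. Of 45101 probe sets, 64 controls were left out, and 932 had several symbols and 9160 none. Member probe sets were kept separate, and list genes were read by the probe set with the highest mean. The floor was 4.34, the median of all values, and signal over background and the number of arrays limit the precision. Log2 differences were counted at 2-fold, with no test. Named genes were the members, the 3 highest and 3 lowest of each longer list and all measured genes of lists with under 13 genes, with the interferon and marker lists summarised. The members and lists were chosen with earlier results of these data known. The counting was tested on simulated data. Alternatives covered the floor, scale, threshold, probe sets and control. A planned protein comparison was not run. Scripts used pandas 2.3.3 and NumPy 2.4.6 under Python 3.11.15, and figures used matplotlib 3.10.9.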

Additional observations from a re-analysis of the deposited data

How the results depend on the processing

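When arrays were centred on their medians or quantile normalized, the largest shift of any member difference was 0.069 on the log2 scale. The array medians were already close, at 4.34, 4.34 and 4.39 in C3H10T1/2, Venus and Venus-Mkx, so centring could move little. Very small differences changed sign, such as that of Mxd1 (1455104_at) from Venus, 0.019 before centring and −0.027 after it. Of 92 recomputed counts and medians, 74 stayed within 1.5 times or within 0.1, and 18 moved. The 74 include the count of members higher in Venus than in C3H10T1/2, which was fixed by the choice of the network. With the floor at the 75th percentile, 8 member probe sets were measured, 1 was lower than both controls, and 1 Myc-repressed gene was lower. At 1.5-fold, 5 member probe sets were higher, 6 Myc-activated genes lower and 3 Myc-repressed genes higher. At 3-fold, 1 member probe set was lower, 0 Myc-activated genes higher and 1 Myc-repressed gene lower. Quantile normalization gave 1 higher member probe set, Mxi1 with 1450376_at. Its log2 difference from C3H10T1/2 went from 0.99 to 1.02, across the 2-fold threshold. With 1 probe set per gene, 9 were measured and 1 was lower. Without probe sets marked _x_at, _s_at and _a_at, 0 Myc-repressed genes were higher, because every measured Clu probe set is so marked. Against Venus alone 1 member probe set was higher. Against C3H10T1/2 alone 2 were higher, and the Myc-activated list had a median of −0.31 with 3 genes lower, and 2 Myc-repressed genes were higher. No paired analysis was possible because each condition has 1 array, and for the same reason no array could be left out.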
